A study of Mus musculus with 64 samples.

Results

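The AMPA and kainate receptor subunits are the 9 genes that encode the pore-forming chains of the fast, non-NMDA glutamate receptors: Gria1, Gria2, Gria3 and Gria4 for AMPA receptors, and Grik1, Grik2, Grik3, Grik4 and Grik5 for kainate receptors. They were taken by symbol from a table of read counts for 55401 genes, of which 55141 were paired with a symbol, and all 9 were among the 18971 genes that passed the filter on low counts. The table comes from bulk mRNA sequencing of the whole hypothalamus and the prefrontal cortex (PFC) of 32 male C57BL/6J mice on chow, 10 weeks old at treatment, which had been given sham injections on the preceding days. Each mouse received 1 intraperitoneal injection of psilocybin at 3 mg/kg or of isotonic saline (vehicle) and was killed 3 h or 4 weeks later, with 8 mice in each of the 4 combinations and both regions taken from every mouse. The 8 groups were therefore PFC and hypothalamus, each from vehicle mice at 3 h, psilocybin mice at 3 h, vehicle mice at 4 weeks and psilocybin mice at 4 weeks. Of the 64 libraries, 62 held at least 1000000 counted reads and were used, which left 7 in the vehicle group at 3 h in hypothalamus, 7 in the psilocybin group at 4 weeks in PFC, and 8 in each other group.

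AMPA receptors are assemblies of 4 subunits that open within milliseconds of glutamate binding and carry most fast excitatory transmission in the brain. Gria2 encodes GluA2, which makes the channel nearly impermeable to calcium once its RNA has been edited at the codon for the pore's Q/R site. Gria1 encodes GluA1, whose insertion into the membrane changes with synaptic activity; Gria3 encodes GluA3, a partner of GluA2 in principal neurons; and Gria4 encodes GluA4, known from interneurons and early development. Kainate receptors act on both sides of the synapse and modulate release as well as the postsynaptic response. Grik1, Grik2 and Grik3 encode GluK1 to GluK3, which can form channels by themselves, whereas Grik4 and Grik5 encode GluK4 and GluK5, high-affinity chains that need one of the former to reach the membrane. Psilocybin is converted to psilocin, an agonist of serotonin 2A receptors that are dense on cortical pyramidal neurons.

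The relation between the members is visible at the Q/R site. The 63 bases around that codon are shown for the 4 AMPA subunits and for Grik1 and Grik2, the kainate subunits whose transcripts are also edited there; the capitals mark the codon, and the letters are those of the GENCODE M21 transcripts on GRCm38, 5′ to 3′ on the coding strand.
Gria1: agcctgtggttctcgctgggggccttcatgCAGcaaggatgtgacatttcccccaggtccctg
Gria2: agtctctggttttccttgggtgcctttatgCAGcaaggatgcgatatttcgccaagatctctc
Gria3: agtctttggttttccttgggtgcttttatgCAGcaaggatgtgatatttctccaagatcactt
Gria4: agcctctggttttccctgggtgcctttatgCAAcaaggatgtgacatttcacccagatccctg
Grik1: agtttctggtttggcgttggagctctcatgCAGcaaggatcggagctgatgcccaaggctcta
Grik2: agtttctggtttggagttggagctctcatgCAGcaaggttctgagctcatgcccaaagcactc
All 6 windows hold a genomic glutamine codon, CAG in 5 and CAA in Gria4. Against the Gria2 window, Gria3 differed at 6 of 63 bases, Gria4 at 9, Gria1 at 14, Grik1 at 21 and Grik2 at 22. The codon lies at chr3:80706911-80706913 on the minus strand in exon 11 of 16 of Gria2, at chr11:57243094-57243096 in exon 11 of 16 of Gria1, at chrX:41610265-41610267 in exon 11 of 16 of Gria3, and at chr9:4464137-4464139 on the minus strand in exon 12 of 17 of Gria4. It lies in exon 13 of 18 of Grik1 (chr16:87940542-87940544, minus strand) and in exon 13 of 17 of Grik2 (chr10:49244329-49244331, minus strand). Counts per gene do not record editing, so the edited share was not measured here. Despite this likeness, at most 0.669% of the stretches of 52 bases (the read length) in a member's transcripts occurred in another gene, the highest share being that of Gria2.

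The genes are long and scattered over 8 chromosomes. On GRCm38, Gria1 (ENSMUSG00000020524.16) spans chr11:57011387-57330244, Gria2 (ENSMUSG00000033981.14) chr3:80681450-80802835, Gria3 (ENSMUSG00000001986.16) chrX:41400854-41676585 and Gria4 (ENSMUSG00000025892.16) chr9:4417896-4796142. Grik1 (ENSMUSG00000022935.16) spans chr16:87895900-88289864, Grik2 (ENSMUSG00000056073.16) chr10:49094833-49788766, Grik3 (ENSMUSG00000001985.9) chr4:125490700-125714173, Grik4 (ENSMUSG00000032017.14) chr9:42518135-42944493 and Grik5 (ENSMUSG00000003378.9) chr7:25009849-25072101. The summed exon length over which reads were counted ran from 5168 bases for Grik5 to 15548 bases for Gria2. Annotated genes that overlap a member on its own strand were small RNAs, pseudogenes and predicted genes at no more than 0.238 counts per 1000000 (CPM).

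The libraries kept held between 8061033 and 70361839 counted reads (median 18287978.5), and a member had between 118 and 45346 reads in a library, the fewest in Grik1. For the hypothalamic markers the libraries followed their dissection labels: the summed CPM of 8 hypothalamic markers was at most 14.0 in a PFC library and at least 331 in a hypothalamus library. Markers of neighbouring tissue varied within a region, those of striatum from 81.0 over a median of 116 to 944 CPM in PFC, the highest in a vehicle library at 4 weeks, and those of choroid plexus from 8.20 over 17.8 to 1178 CPM in hypothalamus, the highest also in a vehicle library at 4 weeks. Several libraries stood apart from their regions. Relative to its group and pool, the hypothalamus library of psilocybin replicate 5 at 4 weeks had lower counts in long genes than in short ones. The slope of its deviations from group and pool, over all genes, on log2 gene length was -0.311. The other hypothalamus libraries lay between -0.0357 and 0.0852. Such slopes are centred within a group, so a library far from its group shifts those of the others in that group the other way. The summed hypothalamic marker level of replicate 5 was 2696 CPM against at most 820 in the others. Its summed levels of inhibitory-neuron (553 CPM, the others at least 785), astrocyte (1040, at least 1197), oligodendrocyte precursor (53.6, at least 102) and cortex markers (40.3, at least 45.4) were below those of every other hypothalamus library. The PFC library of psilocybin replicate 7 at 3 h had the lowest such slope in PFC (-0.0495) and a summed inhibitory-neuron marker level of 521 CPM against at least 557 in the others. Both were kept, and the psilocybin comparisons of their groups are also given for the 60 libraries without them, a choice made after the data were seen. The PFC library of vehicle replicate 5 at 3 h lay at the other end, with a slope of 0.0719 against at most 0.0263 in the other PFC libraries, and had the highest deviation from group and pool in PFC for Gria2 (0.82 in log2 CPM), Gria3 (0.58) and Gria4 (0.66). It is among the 60 libraries, and psilocybin comparisons at 3 h without it are also given for these 3 genes.

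Levels of different genes were compared as CPM per kilobase of summed exon length. In PFC, Gria1 was the most abundant subunit at 63.7 ± 6.99 CPM per kb (SD, n = 31), followed by Gria2 at 46.0 ± 10.3, Gria3 at 37.2 ± 6.67 and Grik5 at 34.9 ± 4.82. Gria3 was above Grik5 in 20 of 31 PFC libraries, so those neighbours did not differ beyond their spread. Gria4 followed at 19.4 ± 3.27 and Grik3 at 10.1 ± 2.99 CPM per kb, and the lowest levels were those of Grik4 (4.98 ± 0.768), Grik2 (4.91 ± 0.771) and Grik1 (2.27 ± 0.311). Grik4 exceeded Grik2 in 17 of 31 libraries, again within their spread, while Grik1 was below Grik2 in all 31.

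The hypothalamus had another order below the first place. Gria1 was higher there, at 87.6 ± 7.23 CPM per kb (SD, n = 31), and the next subunits were close together: Gria2 at 22.2 ± 4.46, Grik5 at 21.8 ± 3.15 and Gria4 at 21.4 ± 2.88. Gria2 exceeded Grik5 in 18 of 31 libraries and Grik5 exceeded Gria4 in 14 of 31, so these 3 could not be ordered. Below them came Grik3 at 12.2 ± 1.95 and Gria3 at 9.69 ± 1.57, the former higher in 30 of 31 libraries. Grik2 (6.46 ± 1.07), Grik4 (5.04 ± 0.504) and Grik1 (4.33 ± 0.587) were again the lowest. Several places in both orders rest on the length used. When each gene was divided by the length of its transcript with the longest coding sequence in place of its summed exons, a choice made after the data were seen, Gria3 (70.7), Gria1 (69.4) and Gria2 (69.0 CPM per kb) were nearly level in PFC, while Gria1 stayed first in hypothalamus at 95.5. By that length Gria3 (18.4) was above Grik3 (12.2 CPM per kb) in hypothalamus, and Grik1 (9.89) was above Grik2 (9.08) and Grik4 (5.11). In PFC, Grik1 (5.20) and Grik4 (5.05 CPM per kb) were then nearly level below Grik2 (6.89).

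Expressed as shares of the summed AMPA subunit level per kb, the PFC held 38.7% ± 4.73 Gria1, 27.4% ± 3.11 Gria2, 22.3% ± 1.63 Gria3 and 11.6% ± 0.735 Gria4 (SD, n = 31). The hypothalamus held 62.4% ± 3.49 Gria1, 15.6% ± 2.23 Gria2, 6.86% ± 0.760 Gria3 and 15.1% ± 1.24 Gria4 (SD, n = 31). Gria1 thus made up the majority of AMPA subunit transcripts in hypothalamus but not in PFC, with no overlap between its shares in the regions (32.1% to 48.2% in PFC, 56.8% to 73.4% in hypothalamus). Among kainate subunits, Grik5 took 61% ± 3.78 of the summed level in PFC and 43.7% ± 5.28 in hypothalamus. Grik3 took 17.5% ± 3.71 and 24.4% ± 3.35, Grik2 8.75% ± 1.99 and 13% ± 1.95, Grik4 8.75% ± 1.26 and 10.1% ± 0.670, and Grik1 4.02% ± 0.705 and 8.69% ± 0.887, in PFC and hypothalamus respectively. The AMPA sum was 166 ± 22.7 CPM per kb in PFC and 141 ± 13.6 in hypothalamus, the kainate sum 57.2 ± 6.69 and 49.8 ± 4.11, and the ratio of the sums 2.94 ± 0.487 and 2.84 ± 0.308. The shares, too, rest on the length used. By the length of the transcript with the longest coding sequence, also chosen after the data were seen, Grik1 took 6.97% ± 1.16 in PFC and 14.9% ± 1.47 in hypothalamus, Gria3 30.4% ± 1.78 and 10.7% ± 1.08, and Gria1 30.4% ± 4.27 and 55.8% ± 3.78 (SD, n = 31), the ranges of Gria1 again not overlapping (24.6% to 39.2% and 49.7% to 67.5%). Such shares change when any one subunit changes, so the levels of each gene between regions are given next.

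**Figure D1:**
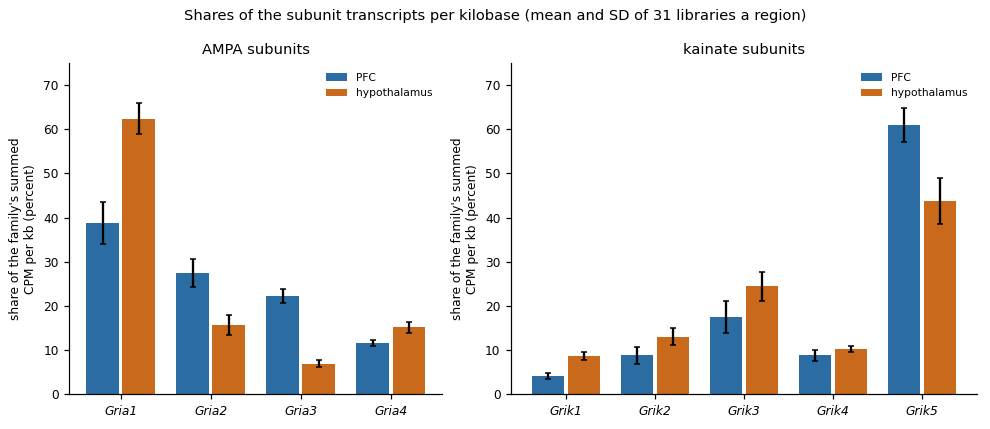
Bars show the mean share of each subunit in the summed CPM per kb of its family (percent), with SD over 31 libraries per region, for AMPA subunits on the left and kainate subunits on the right. Gria1 took 38.7% in PFC and 62.4% in hypothalamus, Gria3 22.3% and 6.86%, and Grik5 61% and 43.7%.

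The AMPA subunits differed between PFC and hypothalamus in opposite directions. Gria3 was 3.84-fold higher in PFC and Gria2 2.08-fold higher, whereas Gria1 was 1.37-fold and Gria4 1.10-fold higher in hypothalamus. Gria3 ranged from 247 over a median of 373 to 511 CPM in the 31 PFC libraries and from 48.3 over 96.7 to 118 CPM in the 31 hypothalamus libraries. These ranges did not overlap. The log2 difference of Gria3 (PFC minus hypothalamus) was 1.94 (SE 0.058, edgeR quasi-likelihood adjusted p = 6.18e-38).

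Gria2 ranged from 383 over 722 to 1046 CPM in PFC and from 104 over 347 to 473 CPM in hypothalamus. The ranges overlapped through the lowest PFC library, psilocybin replicate 7 at 3 h, and the upper hypothalamus libraries, and the log2 difference was 1.06 (SE 0.077, edgeR adjusted p = 5.83e-19). Gria1 ranged from 305 over 380 to 462 CPM in PFC and from 346 over 531 to 603 CPM in hypothalamus. Its ranges overlapped only through the lowest hypothalamus library, psilocybin replicate 5 at 4 weeks, and the log2 difference was -0.46 (SE 0.037, edgeR adjusted p = 1.87e-17). Gria4 ranged from 76.8 over 123 to 165 CPM in PFC and from 57.6 over 135 to 160 CPM in hypothalamus, so that most libraries of the regions shared 1 range. Its log2 difference was small, -0.14 (SE 0.053, edgeR adjusted p = 0.0155).

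Among the kainate subunits, Grik5 was 1.6-fold higher in PFC, and Grik1, Grik2 and Grik3 were higher in hypothalamus, Grik1 by 1.90-fold. Grik1 was the other member whose regions did not overlap, with 12.1 over 15.3 to 20.6 CPM in PFC and 22.3 over 29.2 to 38.7 CPM in hypothalamus. Its log2 difference was -0.93 (SE 0.041, edgeR adjusted p = 4.3e-29). Grik5 ranged from 138 over 177 to 249 CPM in PFC and from 84.3 over 113 to 174 CPM in hypothalamus, with a log2 difference of 0.68 (SE 0.049, edgeR adjusted p = 3.26e-19). The highest Grik5 library of the hypothalamus was again psilocybin replicate 5 at 4 weeks.

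The remaining kainate subunits differed less. Grik2 ran from 37.7 over 66.7 to 83.2 CPM in PFC and from 34.6 over 89.2 to 111 CPM in hypothalamus (log2 difference -0.40, SE 0.062, edgeR adjusted p = 7.23e-08). Grik3 was the most variable member in PFC, at 41.4 over 89.3 to 157 CPM, against 34.4 over 112 to 132 CPM in hypothalamus (log2 difference -0.27, SE 0.082, edgeR adjusted p = 0.00238). Both sets of ranges overlapped widely. The lowest Grik3 library of the hypothalamus was psilocybin replicate 5 at 4 weeks, which also had the lowest Grik2 deviation from group and pool there. In the 60 libraries the log2 difference was -0.40 for Grik2 and -0.31 for Grik3 (edgeR adjusted p = 6.75e-12 and 0.000155). Grik4, the GluK4 gene, had 29.7 ± 4.58 CPM in PFC and 30.1 ± 3.01 in hypothalamus (SD, n = 31); its log2 difference was -0.02 with a 95% confidence interval from -0.11 to 0.07 (edgeR adjusted p = 0.688), so that it was the one member not called.

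In all, 8 of the 9 subunits were called between regions, 3 higher and 5 lower in PFC, and 2 of 9 had ranges that did not overlap. Most expressed genes differ between these regions: 76.2% of the 18971 tested genes were called, 39.6% higher and 36.5% lower in PFC, and 11.3% had ranges that did not overlap. The members' median log2 difference was -0.14 (all genes 0.0188) and their median absolute difference 0.46 (all genes 0.378). Extraction pools A and B held hypothalamus and pools C and D held PFC, so region and pool cannot be told apart.

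The direction was also compared mouse by mouse. The regions of a mouse were matched by treatment, time and cage number. Deviations of the matched libraries had a mean r of 0.0378 over 30 pairs (lowest -0.207), which alone does not show that they came from 1 mouse. In the 30 mice with both regions, Gria2 and Gria3 were higher in PFC in 30, Gria1 and Grik1 lower in 30, Grik5 higher in 29, Grik2 lower in 26, and Gria4 and Grik3 lower in 25, whereas Grik4 was lower in 17 and higher in 13. The mean within-mouse log2 difference was alike in cages 1 to 4 (14 mice) and cages 5 to 8 (16 mice), which were extracted in separate pools, for Gria3 (1.99 and 1.90), Gria2 (1.03 and 1.08) and Grik5 (0.69 and 0.66). It was less alike for Grik1 (-1.13 and -0.76) and Grik2 (-0.52 and -0.27), and for Grik4 it was 0.04 and -0.10.

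When the regions were compared within each condition, 7 of 9 members were called in vehicle mice at 3 h (54.9% of all genes), 8 in psilocybin mice at 3 h (56.2%), 6 in vehicle mice at 4 weeks (55.2%) and 5 in psilocybin mice at 4 weeks (58% of all genes). Gria1, Gria2, Gria3, Grik1 and Grik5 were called in each of the 4 conditions. The log2 difference of Gria3 was 1.78 in vehicle mice at 3 h, 1.92 in psilocybin mice at 3 h, 1.96 in vehicle mice at 4 weeks and 2.09 in psilocybin mice at 4 weeks. Grik2 fell short of the call only in psilocybin mice at 4 weeks (-0.28, edgeR adjusted p = 0.0507); in the 60 libraries the counts were 7, 8, 6 and 6 of 9, beside 61.5%, 61.8%, 62.2% and 60.6% of all genes.

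**Figure D2:**
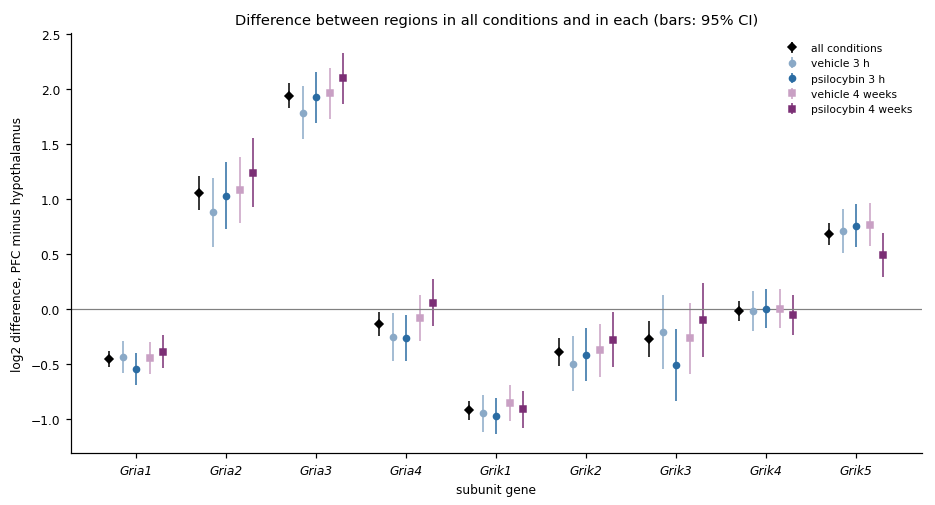
Points show the log2 difference of each subunit between PFC and hypothalamus (y axis, PFC minus hypothalamus) over all conditions and within each of the 4 conditions, with 95% confidence intervals. Gria3 lies near 1.94, Gria2 near 1.06 and Grik5 near 0.68, Grik1 lies near -0.93, and Grik4 lies near -0.02.

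The regions also differed in cell type markers. The summed level of 5 excitatory-neuron markers ran from 1282 to 1872 CPM in PFC and from 245 to 464 CPM in hypothalamus, with 4 of 5 called higher and 1 lower in PFC. Inhibitory-neuron markers ran from 521 to 796 CPM in PFC and from 553 to 1255 CPM in hypothalamus (0 of 3 higher, 2 lower), and oligodendrocyte markers from 2075 to 6251 CPM and from 5467 to 10091 CPM (4 of 4 lower in PFC). Astrocyte markers were similar, at 1661 and 1447 CPM (1 of 4 higher, 1 lower), and microglial markers were at 350 and 185 CPM (4 of 4 higher in PFC). Endothelial markers were at 118 and 83.9 CPM (4 of 4 higher) and oligodendrocyte precursor markers at 108 and 112 CPM (1 of 2 lower). Markers of thalamus were at 32.7 and 208 CPM (4 of 4 lower) and those of choroid plexus at 11.8 and 70.4 CPM (3 of 3 lower). Striatal markers were at 180 and 122 CPM (1 of 5 higher, 2 lower). The part of these markers in the subunit differences was not tested, and in bulk tissue fewer cells of a type and less RNA per cell cannot be told apart.

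The proteins that assemble, carry and anchor these receptors were covered by 34 genes in 5 lists. Of these genes, 26 were called higher and 6 lower in PFC. Another list held 3 genes of the adenosine deaminase family. AMPA receptor auxiliary subunits, which set gating and trafficking, were split, 8 higher and 4 lower of 13 (median log2 difference 0.50). Among them the TARP gene Cacng3 (2.52), Gsg1l (2.21) and the cornichon gene Cnih3 (1.70) were higher in PFC, and the TARP genes Cacng5 (-2.01) and Cacng4 (-1.08) and the CKAMP gene Shisa6 (-0.96) were lower. All 5 genes for assembly and turnover in the endoplasmic reticulum were higher in PFC (median 0.82), among them Abhd6 (0.94), whose product binds newly made AMPA subunits, Abhd12 (0.64) and Porcn (0.82). All 3 neuronal pentraxin genes, whose secreted or membrane-bound products cluster AMPA receptors, were also higher: Nptx1 by 2.27, Nptxr by 1.81 and Nptx2 by 1.32 on the log2 scale.

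Of the genes for kainate receptor partners, 3 of 4 were higher in PFC (median 0.90). The auxiliary subunit gene Neto1 differed by 1.46, its relative Neto2 by 0.33 and C1ql3, a secreted C1q-like organizer, by 1.85. By contrast, C1ql2 was lower in PFC by a log2 difference of -4.35. It was near the floor there, at 0.575 ± 0.527 CPM against 12.2 ± 3.92 in hypothalamus (SD, n = 31), so the size of that difference is poorly set. Trafficking and scaffold genes were called higher in 7 and lower in 1 of 9 (median 0.21), led by the membrane-associated guanylate kinases Dlg3 (1.10), Dlg4 (PSD-95, 1.16) and Dlg2 (1.27), with Grip2 lower (-0.47). The 3 genes of the adenosine deaminase family were all lower in PFC. Adarb1, whose product ADAR2 edits the Q/R codon printed above, differed by -0.53, Adar by -0.33 and Adarb2 by -0.28. The lists are read against the 39.6% and 36.5% of all genes called in each direction.

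The question of the treatment comparisons was whether psilocybin changed subunit transcripts 3 h or 4 weeks after the injection. By edgeR, 0 of 9 members were called in any of the 4 comparisons of psilocybin with vehicle, and DESeq2 also called 0 in each. The edgeR test called 0.0105% of all genes in PFC at 3 h and 0% in PFC at 4 weeks, in hypothalamus at 3 h and in hypothalamus at 4 weeks. Of the 36 tests on members, 1 had an unadjusted p under 0.05, that of Grik3 in PFC at 3 h, where 7.23% of all genes did (2.4%, 1.78% and 9.61% in the other 3 comparisons). There were 2 in the 60 libraries, Grik3 and Grik5 in PFC at 3 h, where 20% of all genes did.

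**Figure D3:**
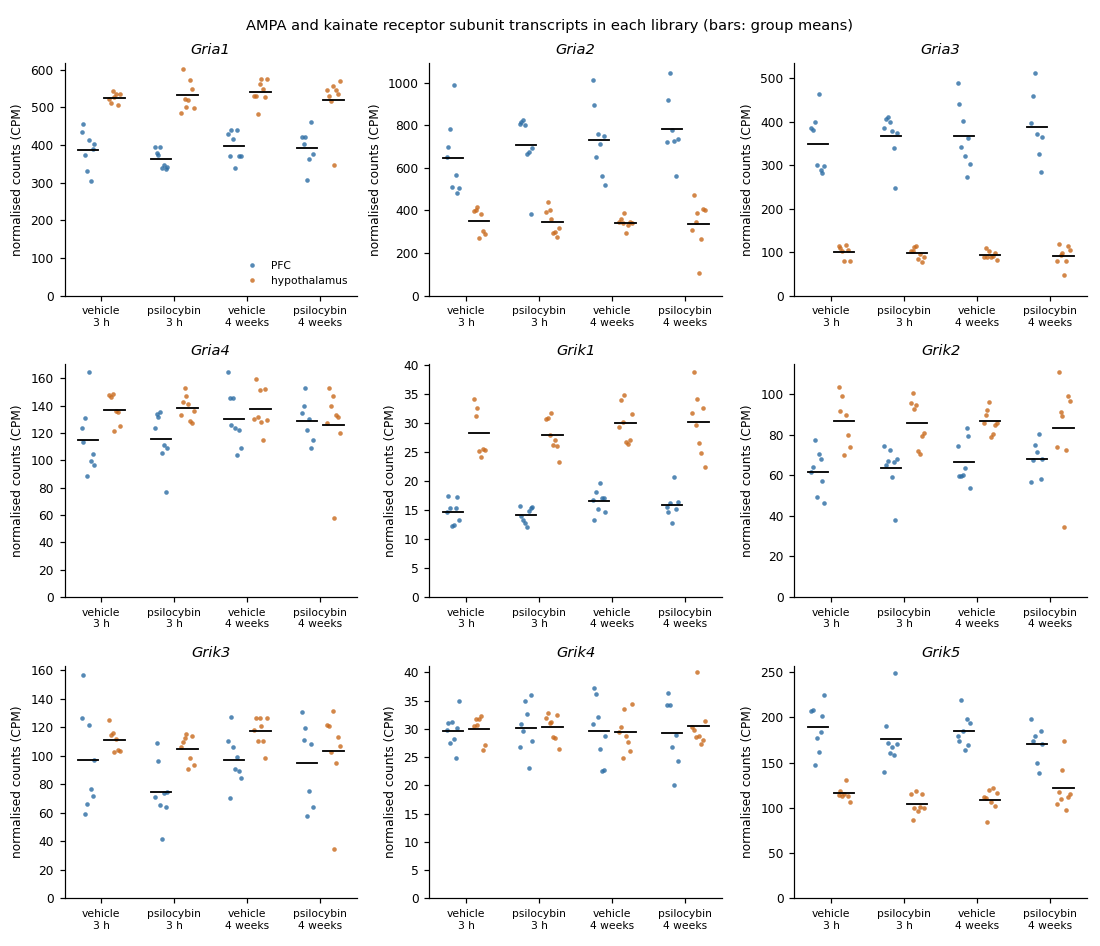
Each point is 1 library and each bar a group mean, with normalised counts (CPM) on the y axis and the 4 conditions on the x axis for PFC and hypothalamus. Gria3 and Grik1 separate the regions completely; within a region the conditions overlap for every subunit, and Grik3 in PFC spreads from 41.4 to 157 CPM.

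Grik3, the gene of the low-affinity subunit GluK3, had the largest estimate of the 36, in PFC 3 h after psilocybin. The 8 vehicle libraries ran from 59.3 over a median of 86.9 to 157 CPM (97.0 ± 34.8, SD, n = 8), and the 8 psilocybin libraries ran from 41.4 over 72.5 to 109 CPM (74.5 ± 20.7, SD, n = 8). The groups overlapped over most of their range. The log2 fold change was -0.40 (SE 0.162, 95% confidence interval -0.72 to -0.07), which did not pass after adjustment (edgeR adjusted p = 0.641). The values within extraction pools were -0.17 in pool C and -0.54 in pool D.

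The call of Grik3 depended on the tool. The paper's own model was limma-voom with quality weights, terms for group and extraction pool, and animal-specific effects, whereas edgeR was the main test here. The paper also left out a sample enriched in wound-healing and immune genes. In limma-voom with library quality weights and the mouse as a correlated block, the log2 fold change was -0.44 with an adjusted p of 0.0361, which made 1 of 9 members called. That test called 6.49% of all genes in this comparison, 1232 in number, against 2 by edgeR. In the 60 libraries the edgeR value was -0.39 (adjusted p = 0.12), and over the single left-out libraries it lay between -0.49 and -0.30. Grik3 had also the largest coefficient of variation of the 9 subunits over PFC libraries, 29.5%, against 11.0% for Gria1.

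For Grik5, the GluK5 gene, and for Gria2, psilocybin replicate 7 lay at the edge of its group in this comparison. Grik5 ran from 147 over 193 to 225 CPM in vehicle mice and from 139 over 169 to 249 CPM in psilocybin mice, the highest library being psilocybin replicate 7. Its log2 fold change was -0.10 (95% confidence interval -0.30 to 0.09) in all libraries and -0.20 in the 60 libraries (edgeR adjusted p = 0.162). Gria2 ran from 482 over 607 to 990 CPM in vehicle mice and from 383 over 747 to 826 CPM in psilocybin mice, the lowest library again being psilocybin replicate 7. Its log2 fold change was 0.11 (95% confidence interval -0.19 to 0.41) and 0.19 in the 60 libraries (edgeR adjusted p = 0.352). The highest vehicle library of Gria2 was replicate 5, and without that library alone the log2 fold change was 0.26. Neither gene was called in any of these sets.

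None of the other members was called in PFC at 3 h. Gria1 was at 388 ± 50.2 CPM in vehicle and 363 ± 25.4 in psilocybin mice (log2 fold change -0.10, 95% confidence interval -0.24 to 0.05), and Gria3 at 349 ± 66.4 and 368 ± 53.7 CPM (0.07, -0.15 to 0.29). Gria4 was at 115 ± 24.4 and 116 ± 19.8 CPM, Grik1 at 14.7 ± 2.03 and 14.2 ± 1.36, Grik2 at 61.8 ± 10.6 and 63.8 ± 11.5, and Grik4 at 29.7 ± 2.98 and 30.2 ± 4.30 CPM (SD, n = 8 in each group). The intervals of these 4 reached no further than -0.22 and 0.29 on the log2 scale. Psilocybin replicate 7 was also the lowest PFC library of the psilocybin group for Gria3 and Grik2. In the 60 libraries without it, the log2 fold change went from 0.07 to 0.12 for Gria3, from 0.05 to 0.13 for Grik2, from -0.01 to 0.05 for Gria4 and from 0.02 to -0.04 for Grik4, the last 2 with a change of sign, and was -0.09 for Gria1 and -0.07 for Grik1. Without vehicle replicate 5 alone it was 0.17 for Gria3 and 0.11 for Gria4. None was called in these sets. Vehicle and psilocybin libraries overlapped for all 9 members, as they did for nearly all genes (0.0105% did not overlap).

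At 4 weeks after the injection the PFC levels were again close. Grik3 was at 97.4 ± 17.5 CPM in the 8 vehicle libraries and 95.4 ± 28.9 CPM in the 7 psilocybin libraries (log2 fold change -0.03, 95% confidence interval -0.37 to 0.30). Gria2 was at 733 ± 163 and 783 ± 156 CPM (0.12, -0.19 to 0.43), and Grik5 at 185 ± 18.0 and 171 ± 20.4 CPM (-0.12, -0.32 to 0.08). The other 6 members had log2 fold changes between -0.06 and 0.10. None of the 18971 tested genes had groups that did not overlap here (0%), and all 9 members overlapped.

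In the hypothalamus at 3 h, the largest estimate was that of Grik5, at 116 ± 7.76 CPM in 7 vehicle and 104 ± 11.2 CPM in 8 psilocybin libraries (log2 fold change -0.15, 95% confidence interval -0.35 to 0.05). Grik3 was at 111 ± 8.25 and 105 ± 9.71 CPM (-0.10, -0.43 to 0.24), and the other 7 members lay between -0.07 and 0.02. All 9 members overlapped, beside 0.0474% of all genes that did not.

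At 4 weeks in the hypothalamus, 1 library set several of the values. Grik5 was at 109 ± 12 CPM in 8 vehicle and 122 ± 24.9 CPM in 8 psilocybin libraries (log2 fold change 0.16, 95% confidence interval -0.04 to 0.35), and Grik3 at 117 ± 10.3 and 103 ± 30.2 CPM (-0.20, -0.52 to 0.12). Psilocybin replicate 5 had the highest Grik5 level (174 CPM) and the lowest Grik3 level (34.4 CPM) of its group. In the 60 libraries, the log2 fold changes were 0.06 for Grik5 and -0.07 for Grik3, that of Gria4 went from -0.13 to -0.02, and those of Gria1 (-0.06 to 0.01), Gria2 (-0.04 to 0.10), Gria3 (-0.03 to 0.06) and Grik2 (-0.06 to 0.05) changed sign. No member was called in either set, all 9 overlapped, and 0% of all genes did not.

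Over the 36 tests, 35 log2 fold changes were smaller than 0.2 in absolute size, and the 95% confidence intervals reached from -0.72 to 0.43. These intervals bound what the design could have missed and do not show that the levels were equal. The sign of the change was the same in both extraction pools for 6 of 9 members in PFC at 3 h, 5 in PFC at 4 weeks, 6 in hypothalamus at 3 h and 5 in hypothalamus at 4 weeks. None of the 12 cell type and region marker lists had a called gene in these 4 comparisons.

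**Figure D4:**
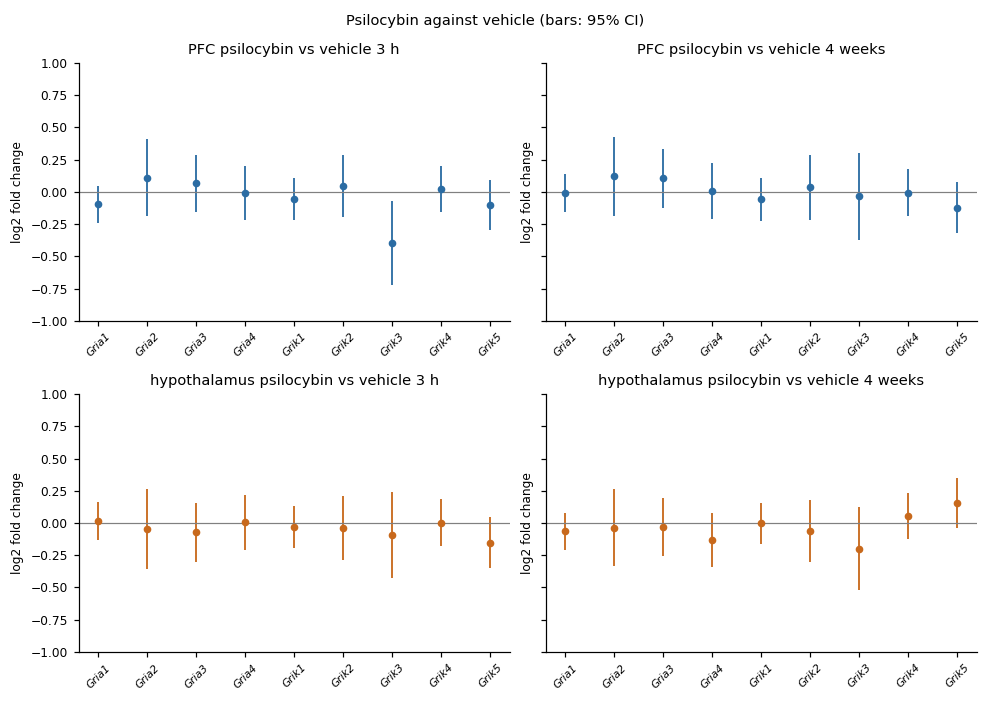
Points show the log2 fold change of psilocybin against vehicle for each subunit with its 95% confidence interval, in 1 panel per region and time. Grik3 in PFC at 3 h (-0.40, interval -0.72 to -0.07) has the interval that leaves 0; those of the other 35 tests cross it.

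Tests of the difference between responses gave 0 of 9 called members, and 0% of all genes, in each of 4 contrasts: PFC minus hypothalamus at 3 h, PFC minus hypothalamus at 4 weeks, 4 weeks minus 3 h in PFC, and 4 weeks minus 3 h in hypothalamus. Before adjustment, 2.78%, 6.69%, 3.08% and 5.27% of all genes were under 0.05 in these contrasts, and 1 of the 36 tests on members was, a number that those shares of all genes do not set apart. That response, of Grik5 in hypothalamus at 4 weeks minus that at 3 h, was 0.31 on the log2 scale (SE 0.139, edgeR adjusted p = 0.904) and 0.22 in the 60 libraries. The response of Grik3 in PFC minus that in hypothalamus at 3 h was -0.30 (95% confidence interval -0.77 to 0.17). The Grik3 estimate in PFC at 3 h was therefore not shown to differ from that in the other region.

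Among the 37 genes for partners and the deaminase family, 0 were called by edgeR in each of the 4 treatment comparisons. At an unadjusted p under 0.05 there were 2 of 37 in PFC at 3 h, 0 in PFC at 4 weeks, 1 in hypothalamus at 3 h and 5 in hypothalamus at 4 weeks, beside 7.23%, 2.4%, 1.78% and 9.61% of all genes. In the 60 libraries the share of all genes was 20% in PFC at 3 h (3775 genes against 1371) and 2% in hypothalamus at 4 weeks (377 against 1823), and the partner genes were not counted there. The list medians in PFC at 3 h lay between -0.09 for the pentraxins and 0.12 for the kainate receptor partners, with a median of -0.01 over all genes.

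Time since the injection was compared within each treatment; the mice at 4 weeks were also older, so time and age cannot be told apart. By edgeR, 0 of 9 members were called in PFC of vehicle mice (4.72% of all genes), hypothalamus of vehicle mice (0.685%), PFC of psilocybin mice (5.96%) and hypothalamus of psilocybin mice (1.16%). Before adjustment, 2 of the 36 tests were under 0.05, where 18%, 8.09%, 20.4% and 17.4% of all genes were, so the members did not stand out. There were 3 in the 60 libraries, Gria4 and Grik1 in PFC of vehicle mice and Grik3 in PFC of psilocybin mice, where 25.1% and 27.9% of all genes were. In all libraries, Grik3 in PFC of psilocybin mice had a log2 difference of 0.37 (4 weeks minus 3 h, SE 0.167, edgeR adjusted p = 0.19), against 0.01 in vehicle mice. The difference between the treatments was 0.36 and was not called. It rests on the same libraries at 3 h as the Grik3 estimate for psilocybin above. Grik5 in hypothalamus of psilocybin mice had a difference of 0.22 (SE 0.097, edgeR adjusted p = 0.219), which was 0.13 in the 60 libraries.

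Gria4 in PFC of vehicle mice ran from 88.4 over 109 to 164 CPM at 3 h and from 104 over 125 to 165 CPM at 4 weeks. The groups overlapped, and the log2 difference was 0.16 (SE 0.104, edgeR adjusted p = 0.434). In limma-voom with quality weights it was 0.27 with an adjusted p of 0.0127, 1 of 9 members, in a test that called 5.98% of all genes. In the 60 libraries the edgeR value was 0.17 (adjusted p = 0.157), and without vehicle replicate 5 at 3 h, the highest Gria4 library of its group, it was 0.28 and not called.

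Of the 37 genes for partners and the deaminase family, Abhd6 was the one called over time, in PFC of both treatments. There 4.72% (vehicle) and 5.96% (psilocybin) of all genes were called, so the 37 genes as a group did not stand out. The Abhd6 level was 70.6 ± 8.23 CPM at 3 h and 55.7 ± 4.53 CPM at 4 weeks in vehicle mice (SD, n = 8). In psilocybin mice it was 71.7 ± 4.77 (n = 8) and 57.3 ± 3.13 CPM (n = 7). The log2 difference was -0.34 (SE 0.0644, edgeR adjusted p = 0.000408) in vehicle and -0.32 (SE 0.0669, edgeR adjusted p = 0.0012) in psilocybin mice. In the same comparisons 1 of 4 microglial markers was called lower at 4 weeks in each treatment. Also called were 1 of 4 astrocyte markers, lower in psilocybin mice, and 1 of 8 hypothalamic markers, higher in vehicle mice. The part of these markers in the Abhd6 difference was not tested. In hypothalamus Abhd6 was at 34.2 ± 2.64 CPM at 3 h (n = 7) and 32.5 ± 2.11 CPM at 4 weeks (n = 8) in vehicle mice, and was not called.

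Some pairs of subunits varied together between mice of a group. After group and pool had been removed, Gria2 correlated over the 31 PFC libraries with Gria3 (Pearson's r = 0.93, Spearman's rho = 0.92, r = 0.88 without the 2 libraries farthest from the median) and with Gria4 (r = 0.91, rho = 0.78, 0.81 without 2). Grik2 correlated negatively with Grik4 in PFC (r = -0.74, rho = -0.71, -0.64 without 2) and with Grik5 (r = -0.70, rho = -0.59, -0.52 without 2). In hypothalamus Gria2 and Grik2 had the highest correlation of any pair (r = 0.97, rho = 0.83, 0.89 without 2, 31 libraries). Of the 36 pairs per region, 22 were positive in PFC (median 0.06) and 30 in hypothalamus (median 0.27). The points share libraries, depth and RNA, and are given as a description.

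For some members the deviations also ran with the library's slope of all genes on gene length. Like the deviations, that slope was taken after group and pool had been removed. In hypothalamus, that correlation over 31 libraries was 0.94 for Gria4 (rho 0.80, 0.76 without 2), 0.93 for Gria2 (0.67, 0.74), 0.92 for Grik3 (0.61, 0.56), 0.91 for Grik2 (0.59, 0.68), 0.84 for Gria1 (0.59, 0.48) and 0.78 for Gria3 (0.51, 0.55). In PFC it was 0.81 for Gria2 (0.59, 0.63) and Gria4 (0.59, 0.60), 0.79 for Gria3 (0.64, 0.62) and 0.53 for Grik2 (0.41, 0.36), but 0.34 for Grik3 (0.20, 0.25) and 0.20 for Gria1 (0.13, 0.07). Grik5, the member with the shortest summed exons, had negative values, -0.55 in hypothalamus (-0.27, -0.08) and -0.37 in PFC (-0.24, -0.09), which largely vanished without the 2 extreme libraries. For Grik1 it was 0.12 in hypothalamus (0.12, 0.03) and 0.04 in PFC (0.19, 0.36), where the value without the 2 extreme libraries was as high as that of Grik2. For Grik4 it was 0.07 in hypothalamus (-0.11, 0.15) and -0.25 in PFC (-0.22, -0.21).

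**Figure D5:**
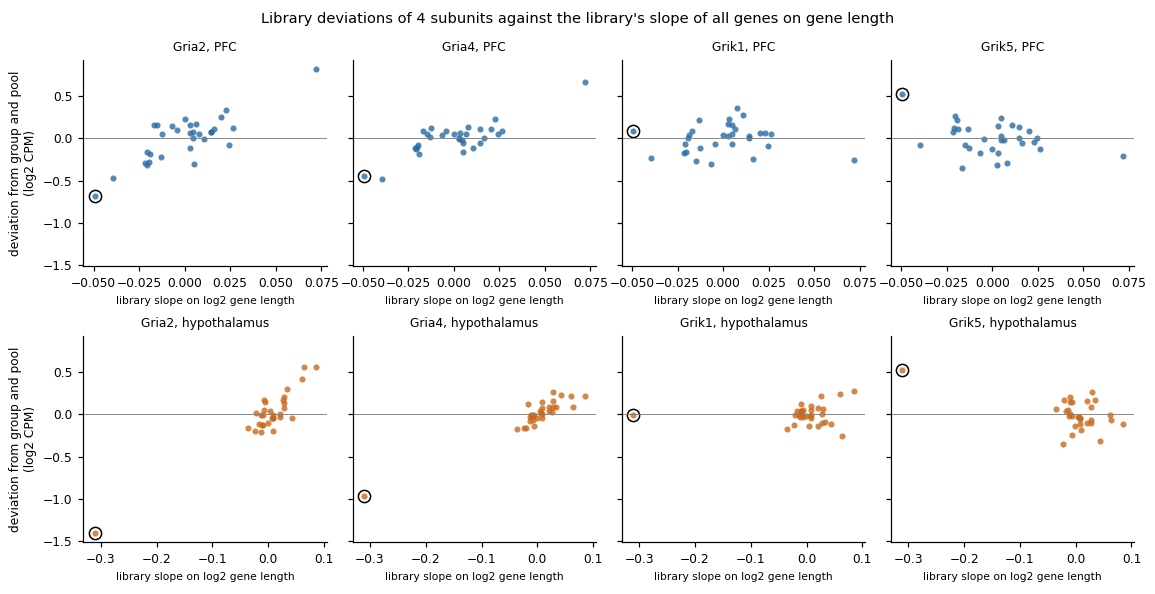
Each point is 1 library. The x axis is its slope on log2 gene length of the deviations of all genes from group and pool. The y axis is the deviation of Gria2, Gria4, Grik1 or Grik5 from its group and pool in log2 CPM. PFC is above and hypothalamus below. Circles mark the 2 libraries left out of the 60; Gria2 and Gria4 rise with the slope (r = 0.81 in PFC for both, 0.93 and 0.94 in hypothalamus), while Grik1 has r = 0.04 in PFC (0.36 without the 2 libraries farthest from the median slope) and 0.12 in hypothalamus.

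The gene whose deviations were most like those of each member, over all genes tested and 31 libraries per region, was in PFC Slc2a3 for Gria1 (r = 0.83), Atrx for Gria2 (0.97), Cnksr2 for Gria3 (0.95) and Hace1 for Gria4 (0.93). For the kainate subunits in PFC it was Gm10710 for Grik1 (0.73), Tomm70a for Grik2 (0.94), Spon1 for Grik3 (0.87), Actn4 for Grik4 (0.86) and Atp13a2 for Grik5 (0.95). In hypothalamus it was Sesn3 for Gria1 (0.93), Fnbp1l for Gria2 (0.98), Kalrn for Gria3 (0.93), Uhmk1 for Gria4 (0.96), Drosha for Grik1 (0.66), Gria2 for Grik2 (0.97), Trpc5 for Grik3 (0.97), Hap1 for Grik4 (0.80) and Ssbp4 for Grik5 (0.94). No member had the same most similar gene in both regions. These values are the largest of many correlations. Without the 2 libraries farthest from the median every r was lower, and in hypothalamus every rho was below its r. The rho and the r without 2 libraries were 0.66 and 0.65 for Hap1, and 0.56 and 0.64 for Drosha. They were 0.89 and 0.86 for Trpc5, and 0.86 and 0.82 for Sesn3.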

How the data were processed

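Poly-A mRNA libraries (TruSeq Stranded, 52-bp paired-end) were counted by the authors with featureCounts 1.6.2 per GENCODE gene after alignment with STAR 2.7.2b to GRCm38, following bcl2fastq 2.20.0, per the labels and the study's methods. The deposited values are raw counts per gene, not normalised. Libraries under 1000000 counts were left out (2 of 64). The other 62 were analysed together, with terms for group and for extraction pool, in edgeR 4.0.16 in R 4.3.3 (TMM, filterByExpr with minimum count 10, robust quasi-likelihood F-test, Benjamini-Hochberg over 18971 genes, threshold 0.05; 52 residual degrees of freedom, coefficient of biological variation 20.3%). SE is the log2 fold change divided by the root of F, and CPM uses TMM library sizes. The scripts were tested on simulated data. Alternatives were limma 3.58.1 voom with quality weights and the mouse as block, DESeq2 1.42.0, other size factors, no filter, no pool, cage block, gene length offset, 60, 61 or 64 libraries, the compared groups alone, and each library left out.

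Members, lists, markers and tests were chosen with earlier results of these data known. Named were all 9 members; of each list, up to 3 called genes of smallest p per direction in a comparison; and the most correlated gene per member and region. Cages 1 to 4 were extracted in pools A and C, 5 to 8 in B and D. Cage numbers did not pair samples: the mean r of same-cage deviations was 0.109 in PFC and 0.0869 in hypothalamus (other pairs -0.0455 and -0.0382; lowest same-cage r -0.42 and -0.226), and -0.0458 and -0.0216 with pool removed. No 2 libraries agreed within counting noise (chi-square per degree of freedom at least 3.85 in 210 pairs). The genes of 1 further list are not reported here.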

Additional observations from a re-analysis of the deposited data

Results flagged for a closer look

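In 8 of 72 groups of a subunit and a condition, 1 library lay further from the others than Dixon's 95% limit allows, where chance gives about 3.6; 6 of the 8 were low. The PFC library of psilocybin replicate 7 at 3 h had 383 CPM of Gria2 (the other 7 had 664 to 826), 247 CPM of Gria3 (340 to 410), 37.7 CPM of Grik2 (59.1 to 74.4) and 249 CPM of Grik5 (139 to 190). The hypothalamus library of psilocybin replicate 5 at 4 weeks had 346 CPM of Gria1 (the other 7 had 518 to 570), 57.6 CPM of Gria4 (120 to 153) and 34.4 CPM of Grik3 (94.8 to 132). The latter stood apart in its slope on gene length and its markers, while the former had the lowest slope in PFC (-0.0495, with the next at -0.0396), and the part of those properties in the levels was not tested. The remaining library, hypothalamus psilocybin replicate 4 at 4 weeks, had 40.2 CPM of Grik4, with the other 7 between 27.3 and 31.4.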

How the results depend on the processing

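Between regions, 8 of 9 members were called under all 12 alternatives and without any single library, with no change of sign. For psilocybin, 0 of 9 was also the count in each comparison under every alternative and left-out library (range 0 to 0) but limma-voom, which gave 1 in PFC at 3 h (Grik3) and 1 in PFC of vehicle mice over time (Gria4). With the cage as replicate block the counts were 8 between regions and 0 elsewhere; the block changed no call of a member. Counts over all genes moved more: in PFC at 3 h from 2 to between 0 and 1232 (limma-voom; DESeq2 9), in PFC at 4 weeks from 0 to 19 and in hypothalamus at 4 weeks from 0 to 13 (both DESeq2). Over time they moved in PFC of vehicle mice from 896 to between 310 and 1946, in hypothalamus of vehicle mice from 130 to between 53 and 1375, in PFC of psilocybin mice from 1131 to between 552 and 3614, and in hypothalamus of psilocybin mice from 220 to between 31 and 624. Contrasts of responses reached 8, 64 and 4 genes under other tools. Leaving out single libraries gave 1 to 11 genes in PFC at 3 h. Over time it gave 480 to 1378 in PFC of vehicle mice and 67 to 119 in hypothalamus of vehicle mice. In psilocybin mice it gave 706 to 1292 in PFC and 131 to 368 in hypothalamus. The cause of these shifts was not tested. Each member had at least 118 reads in a library; the 95% intervals of the treatment tests reached at least 0.143 to either side.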

Other observations

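The makeup of each receptor family was also computed by condition. In PFC the Gria2 share of summed AMPA subunit CPM per kb was 25.8% ± 3.16 in vehicle and 27.9% ± 2.89 in psilocybin mice at 3 h (SD, n = 8 each), and 27.4% ± 3.11 (n = 8) and 28.6% ± 3.23 (n = 7) at 4 weeks. The Grik3 share of kainate subunits in PFC was 17.9% ± 4.69 and 15.3% ± 3.71 at 3 h, and 18.3% ± 2.07 and 18.6% ± 3.62 at 4 weeks, in the same order. In hypothalamus the Gria1 share lay between 61.6% and 63.4% in the means of the 4 groups. The hypothalamic Grik3 share of kainate subunits was 24.5% ± 0.840 in vehicle (n = 7) and 24.6% ± 1.16 in psilocybin mice (n = 8) at 3 h, and 26.1% ± 1.35 and 22.5% ± 6.07 at 4 weeks (n = 8 each). The Grik5 share there was 44.4% ± 2.39 and 42.3% ± 2.96 at 3 h, and 42.1% ± 2.71 and 46.3% ± 9.24 at 4 weeks. Psilocybin replicate 5 at 4 weeks held the lowest Grik3 share (7.84%) and the highest Grik5 share (68.8%). These shares were not tested.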
